A study of Sus scrofa with 9 samples.

Results

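MYOC encodes myocilin, a secreted glycoprotein, and its transcript was measured in the longissimus dorsi muscle of minipigs on a long high-fat high-sucrose diet and on control diet. The gene was taken as all array probes, control spots aside, whose RefSeq accession belongs to pig MYOC, which gave 1 gene of the 3196 named on the array, read by 3 probes of 43603, each carrying the accession NM_213986 and each present as 1 spot per array. In the Sscrofa11.1 gene table MYOC lies on chromosome 9. Its coordinates are left out, as no build is stated in the scanner output. MYOC was chosen by its measured level, which differed between the diets on these same arrays, so its diet difference is described below with no test.

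The 6 animals of the high-fat high-sucrose group (HFHSD) received a feed of 53% basal diet, 37% sucrose and 10% lard, and the 3 animals of the control group (CD) received standard pig chow. All were Bama minipigs, a small Chinese breed used as a model of obesity, gonadally intact and of both sexes, and the feeding lasted 23 months from an age of 6 months. Which animals were male is not stated in the labels, and these put the control group at 3 animals in one place and at 6 in another, of which 3 were analysed. Each animal has 1 single-colour Agilent array. Levels are in log2 of the processed signal after subtraction of each array's own 75th percentile, which is thus 0. Differences are HFHSD minus CD on that scale.

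Myocilin carries an olfactomedin domain and is best known from the eye, where the trabecular meshwork secretes it, where glucocorticoids induce it, and where mutant human forms misfold in the endoplasmic reticulum and cause glaucoma. Skeletal muscle also makes the transcript. In mice the protein was found to bind syntrophins, which belong to the dystrophin-associated complex under the muscle membrane, and to modulate Wnt signalling through frizzled receptors and their secreted antagonists.

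The arrays read muscle RNA: all 17 tested muscle fibre markers were well above background on all 9 arrays, among them the skeletal actin ACTA1, the muscle creatine kinase CKM and the intermediate filament protein DES. Between 51.1% and 68.8% of probes were well above background on the HFHSD arrays, against 36.7%, 63.3% and 58.1% on CD 1, CD 2 and CD 3. The 75th percentile of the processed signal ran from 167 to 296 on the HFHSD arrays, against 134 on CD 1, 224 on CD 2 and 205 on CD 3. The arrays lay on 3 slides. HFHSD 5 and HFHSD 6 were alone on slide 1, which was scanned on another day. These 2 arrays also carried an older probe annotation than the others, and both annotations gave MYOC 3 probes. CD 1 shared slide 2 with HFHSD 1, HFHSD 3 and HFHSD 4, while both other CD animals shared slide 3 with HFHSD 2. Over all 27925 tested probes, 344 (1.23%) passed limma at an adjusted p below 0.05, of which 194 (0.695%) were higher and 150 (0.537%) lower in HFHSD.

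MYOC was well above background on all 9 arrays by all 3 probes, and none of its spots was saturated or marked as an outlier. The probe A_72_P232842 had a processed signal between 3372 and 5577 on the HFHSD arrays, against 704, 823 and 803 on CD 1, CD 2 and CD 3. For A_72_P441639 the processed signal lay between 562 and 835 on the HFHSD arrays, against 121, 133 and 141 on the CD arrays. A_72_P583116 gave 445 to 1575 on the HFHSD arrays, against 156, 215 and 166 on the CD arrays. Each HFHSD array was thus brighter than each CD array at each probe before any scaling. The error that the scanner software assigned to these signals was between 10.0% and 11.3% of the signal. The dimmest of the 27 spots relative to its surroundings, A_72_P441639 on CD 2, still stood 6.37 times over its local background. Signals of different probes depend on the probe and are not compared with each other.

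**Figure D1:**
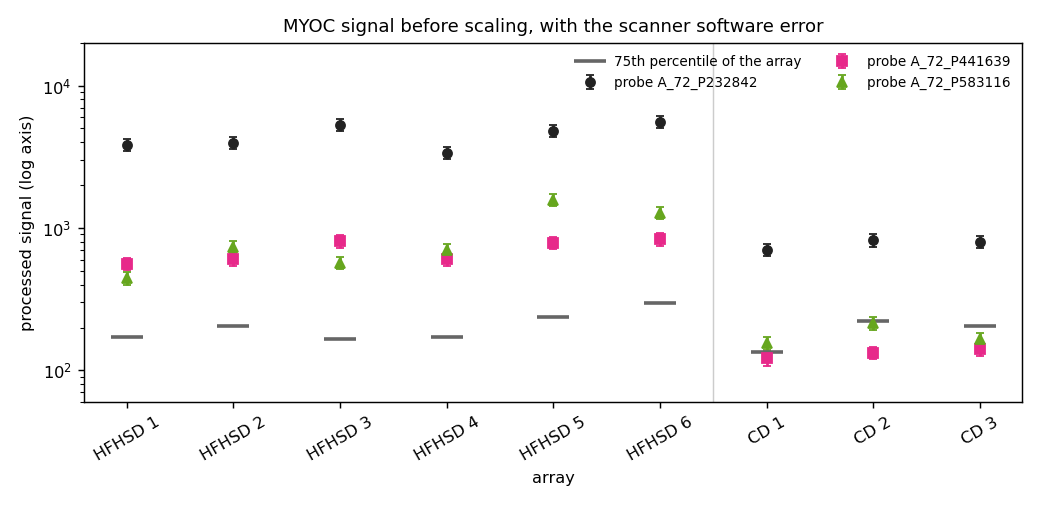
Processed signal of the 3 MYOC probes on each array before scaling (log axis), with the error given by the scanner software as bars and the 75th percentile of each array as a grey dash. At each probe all 6 HFHSD arrays lie above all 3 CD arrays, while the 75th percentiles of the groups overlap.

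After scaling, A_72_P232842 had a lowest value of 4.24, a median of 4.32 and a highest value of 4.99 in HFHSD, against 2.39, 1.88 and 1.97 in CD 1, CD 2 and CD 3. The means were 4.44 ± 0.28 (SD, n = 6) in HFHSD and 2.08 ± 0.27 (SD, n = 3) in CD, a log2 difference of 2.36 or 5.13-fold. The lowest HFHSD array lay 1.85 above the highest CD array, which is more than the whole range within either group (0.76 in HFHSD and 0.51 in CD).

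A_72_P441639 had a lowest value of 1.496, a median of 1.72 and a highest value of 2.27 in HFHSD, against -0.15, -0.75 and -0.54 in CD 1, CD 2 and CD 3. Its means were 1.76 ± 0.28 (SD, n = 6) in HFHSD and -0.48 ± 0.31 (SD, n = 3) in CD, a log2 difference of 2.24 or 4.74-fold. HFHSD animals were thus all above the 75th percentile of their arrays and CD animals all below it at this probe.

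A_72_P583116 had a lowest value of 1.37, a median of 1.94 and a highest value of 2.73 in HFHSD, against 0.21, -0.058 and -0.31 in CD 1, CD 2 and CD 3. Its means were 1.98 ± 0.45 (SD, n = 6) in HFHSD and -0.051 ± 0.26 (SD, n = 3) in CD, a log2 difference of 2.03 or 4.07-fold. This probe had the widest spread among HFHSD animals, a range of 1.36, and the smallest gap between the groups, 1.15.

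Each of the 3 MYOC probes thus kept the groups apart. Across the array 4.8% of tested probes had every HFHSD array above every CD array. Since this same contrast chose the gene, the count is given as a description. Averaged over its 3 probes, MYOC was 2.73 ± 0.20 (SD, n = 6) in HFHSD and 0.52 ± 0.26 (SD, n = 3) in CD, a log2 difference of 2.21 or 4.62-fold. In bulk muscle more cells that express MYOC and more MYOC RNA per cell cannot be told apart.

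**Figure D2:**
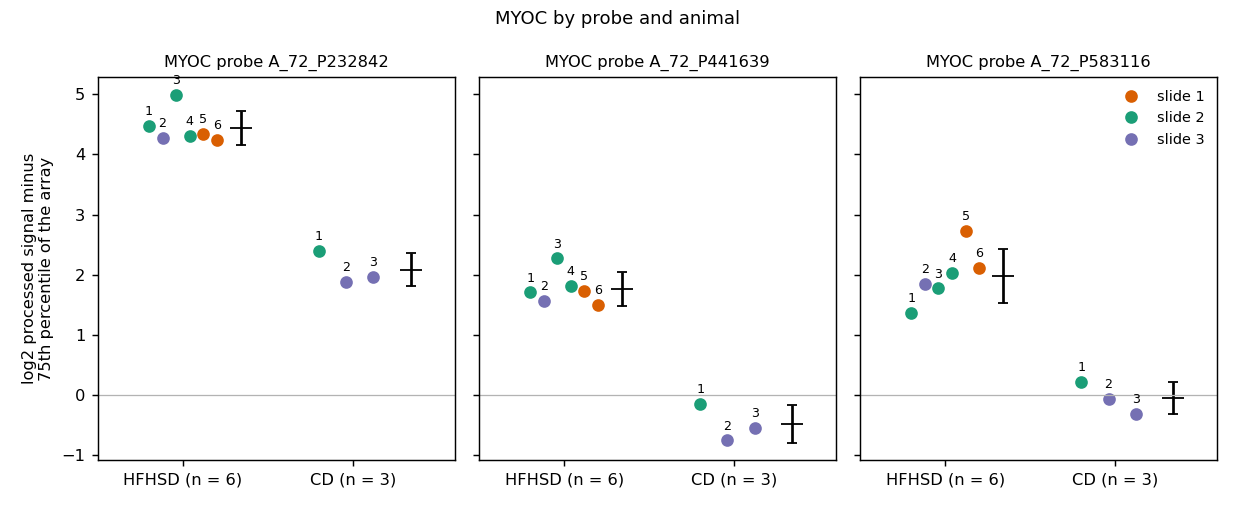
Scaled level of each MYOC probe (log2 processed signal minus the 75th percentile of the array) by diet, 1 point per animal numbered by replicate and coloured by slide, with mean ± SD as black bars. The gap between the groups is 1.85 for A_72_P232842, 1.64 for A_72_P441639 and 1.15 for A_72_P583116.

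The order of animals within a group depended on the scaling, while the separation of the groups did not. CD 1 had the highest scaled value of the CD animals at each probe but the lowest processed signal at each probe, and its 75th percentile was the lowest of all arrays. Under the 6 scalings tried, and also without scaling, the lowest HFHSD array stayed above the highest CD array at each probe. The smallest of these gaps was 0.83, for A_72_P583116 after normexp background correction and quantile normalisation, and the largest was 2.13, for A_72_P232842 after normexp and percentile scaling. Unscaled, the log2 differences were 2.51 for A_72_P232842, 2.39 for A_72_P441639 and 2.18 for A_72_P583116, of which 0.15 was the difference of the 75th percentiles between the groups.

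Within slides the direction was the same. On slide 2 the mean of the 3 probes was 2.75 in 3 HFHSD animals and 0.82 in CD 1, a difference of 1.93. On slide 3 it was 2.56 in HFHSD 2 and 0.36 in 2 CD animals, a difference of 2.20. Slide 1 held no CD animal, and its HFHSD animals averaged 2.77. With slide as a fixed block in the model the difference was 2.05. Without CD 1 it was 2.36, the highest value over all alternatives, and the lowest was 1.87, after normexp and quantile normalisation.

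The probes differed in how they ranked the animals of a group. A_72_P232842 and A_72_P441639 moved together: HFHSD 3 lay 0.56 and 0.51 above the HFHSD mean at these probes, and HFHSD 6 lay 0.20 and 0.27 below it (deviations of -0.20 and -0.27). A_72_P583116 ranked the HFHSD animals otherwise, with HFHSD 5 at 0.75 above the mean, HFHSD 1 at -0.61 and HFHSD 3 at -0.20. Pearson's r between deviations from the group means over the 9 arrays was 0.94 for A_72_P232842 with A_72_P441639, -0.14 for A_72_P232842 with A_72_P583116 and 0.0075 for A_72_P441639 with A_72_P583116. These r values are descriptions over few arrays, since the 3 probes were read on the same RNA and share each array's scaling. HFHSD 5 came from slide 1, where A_72_P583116 averaged 2.42, against 1.72 in the HFHSD animals of slide 2 and 1.84 in HFHSD 2 on slide 3. At A_72_P232842 the order of the slides was different, with 4.29 on slide 1, 4.59 on slide 2 and 4.28 on slide 3 in HFHSD animals. The part of slide in this disagreement was not tested.

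**Figure D3:**
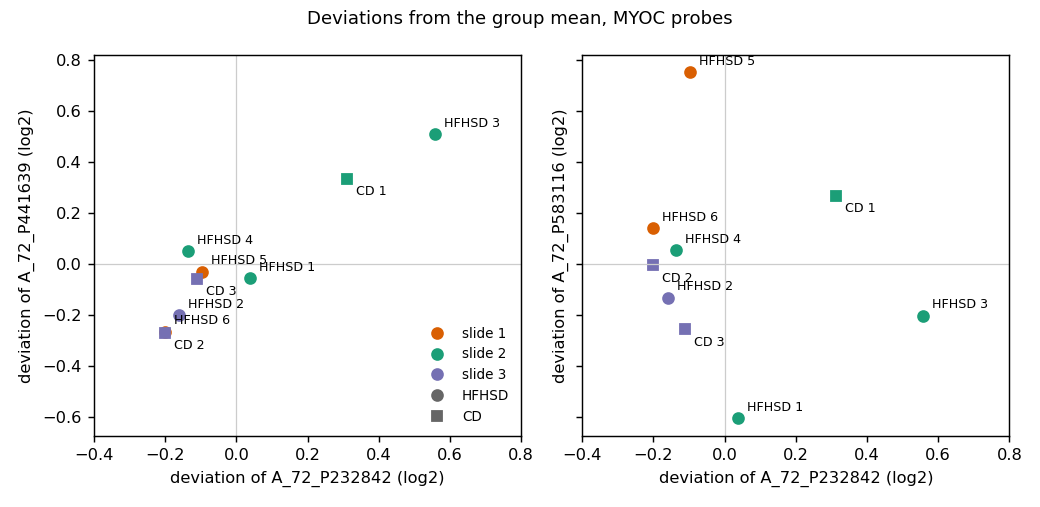
Deviation of each animal from its group mean (log2) at A_72_P441639 (left) and A_72_P583116 (right), against its deviation at A_72_P232842, with circles for HFHSD, squares for CD and slides by colour. The left points follow a line with HFHSD 3 and CD 1 at its upper end, and the right points do not.

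Of 2613 named genes tested by their brightest probe, 5 had a larger positive difference than MYOC, and 13 had a larger absolute one. The higher ones were PNPLA3, a lipase of lipid droplets (3.48), the dehydrogenase SDR16C5 (3.26), the neurotrophin BDNF (2.49), ADIPOQ, the fat cell hormone adiponectin (2.47), and the fatty acid desaturase SCD (2.43). Among these 14 genes with MYOC included, MYOC had the smallest SD in HFHSD, 0.28, and the others ran from 0.37 for MUL1 to 3.21 for ADAMTS8. The median SD in HFHSD over all tested genes was 0.39, and 29.9% of them had one as small as that of MYOC. Several of the 14 were dim, such as BDNF with means of -2.23 in HFHSD and -4.72 in CD. The groups did not overlap for 6 of the 14, where 13.1% of all tested genes had groups that did not overlap in either direction. Since the 14 were taken by the size of this same difference, that count is given as a description.

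The genes whose profile over the 9 arrays was most like that of MYOC, by Pearson's r with the mean of its probes, were CAT, C4H8orf37, HSD11B1, FCGR3A and EGF. Such an r rests mainly on the gap between the diets, and 12 of 2612 genes had one over 0.9. The r was 0.97 for CAT, 0.97 for C4H8orf37, 0.97 for HSD11B1, 0.97 for FCGR3A and 0.96 for EGF. Within the groups the likeness was lower, and r between deviations from the group means was 0.23 for CAT, 0.40 for C4H8orf37, 0.86 for HSD11B1, 0.79 for FCGR3A and 0.66 for EGF.

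HSD11B1, the reductase that regenerates active glucocorticoid inside cells, had a lowest value of 5.14, a median of 5.28 and a highest value of 5.49 in HFHSD, against 4.74, 4.26 and 4.42 in CD 1, CD 2 and CD 3. Its groups did not overlap and all 6 of its probes were higher in HFHSD, but the difference of 0.82 (SE 0.18) did not pass by limma (adjusted p = 0.0631, 0.00995 to 0.254 over the alternatives). Its highest HFHSD animal was HFHSD 3 and its highest CD animal CD 1, as for the mean of the MYOC probes.

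FCGR3A, an immunoglobulin receptor of leukocytes, was 1.52 to 2.10 in HFHSD with a median of 1.89, against 1.09, 0.59 and 0.37 in CD 1, CD 2 and CD 3. It rose by 1.19 (SE 0.21, limma adjusted p = 0.0338, 0.0133 to 0.191 over the alternatives), passing in 9 of 21 alternatives and not when slide was a fixed term (adjusted p = 0.0702). CAT, or catalase, which removes hydrogen peroxide, was 5.19 to 5.42 in HFHSD with a median of 5.33, against 4.56, 4.58 and 4.45 in CD, and rose by 0.80 (SE 0.15, limma adjusted p = 0.0401, 0.00274 to 0.223 over the alternatives), passing in 8 of 21 and not when slide was a fixed term (adjusted p = 0.0779). Neither gene passed with any 1 animal left out. C4H8orf37 differed by 0.68 without passing (limma adjusted p = 0.0664). All 4 differences were smaller than that of MYOC. As these genes were picked for a likeness that includes the diet gap, and MUL1 and POPDC3 below for the opposite, their p-values are not independent of that choice.

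**Figure D4:**
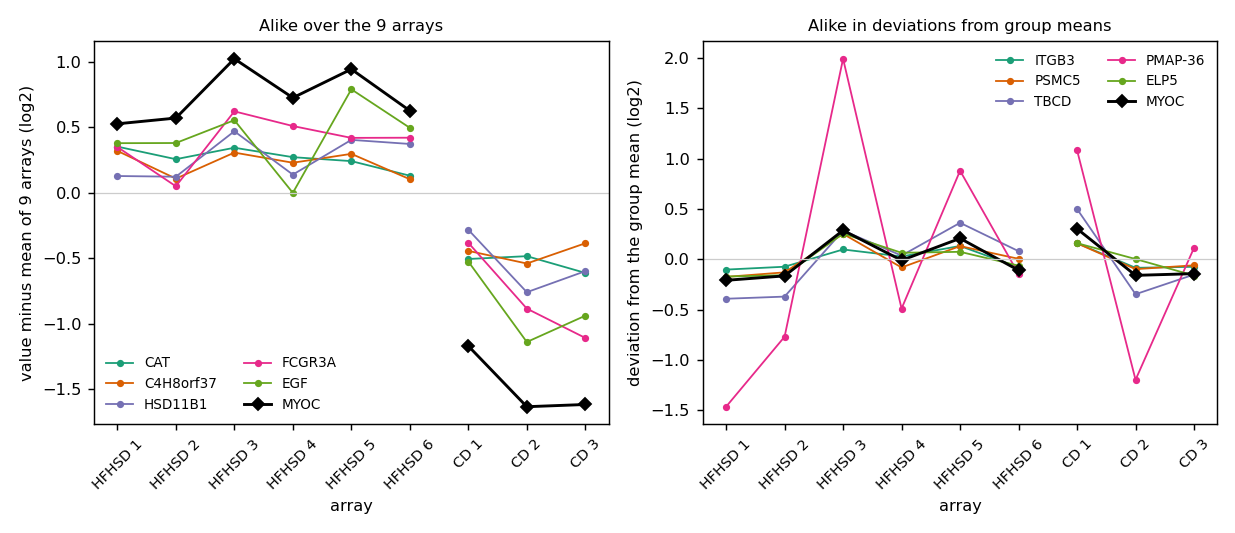
Left, scaled values minus the mean of the 9 arrays (log2) for MYOC (mean of its probes, black) and the 5 genes most like it over the 9 arrays; right, deviations from the group mean (log2) for MYOC and the 5 genes most like it in these deviations. On the left all 6 lines are higher in HFHSD than in CD; on the right HFHSD 3, HFHSD 5 and CD 1 lie above 0 for MYOC.

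The profiles most opposite to that of MYOC over the 9 arrays were NOP56 (r = -0.96), POPDC3 (-0.96), MUL1 (-0.96), TPRG1L (-0.95) and IMP3 (-0.94). MUL1, a ubiquitin ligase of the outer mitochondrial membrane, was -2.24 to -1.29 in HFHSD, against 3.05, 2.40 and 3.36 in CD 1, CD 2 and CD 3. It fell by 4.58 (SE 0.28, limma adjusted p = 1.3e-04, 2.67e-05 to 0.00992 over the alternatives). Within the groups r between deviations of MUL1 and MYOC was 0.48, so the opposite pattern lay between the diets. POPDC3, a membrane protein of striated muscle, fell by 1.17 (limma adjusted p = 0.0298, 0.0115 to 0.448 over the alternatives), passing in 11 of 21 and not when slide was a fixed term (adjusted p = 0.0779). NOP56, TPRG1L and IMP3 did not pass.

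In deviations from the group means alone, the closest genes were ITGB3 (r = 0.97), PSMC5 (0.94), TBCD (0.93), PMAP-36 (0.90) and ELP5 (0.90). None of the 5 passed between the diets (limma adjusted p = 0.467 to 0.885), and ITGB3 differed by 0.070 and PSMC5 by -0.075. Both of these signs turned under other scalings, as given in the closing section. PMAP-36 was dim and cleared background on only 3 of 6 HFHSD and 1 of 3 CD arrays. Deviations of all genes on an array share its 75th percentile.

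Lists of genes around myocilin were then read from the same fit. The lists hold 330 genes, of which 140 were tested, and 2 of these passed, 1.43% of those tested, against 0.995% of all tested genes. Groups did not overlap for 15.7% of the tested list genes and for 13.1% of all tested genes. An unadjusted p below 0.05 was reached by 32 of the 140 tested list genes, a somewhat higher share than the 18.4% of all tested genes. By calls and by groups that did not overlap, the lists as a whole thus stood near the background of the array. Over all tested genes the median difference was -0.085, and scaling by the array median moved it to -0.23. Of all 2613 tested genes, 1109 were higher and 1504 lower in HFHSD.

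Of the 12 other olfactomedin domain genes listed, 0 had a named probe, so MYOC stands here without its family.

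Of the dystrophin-associated complex, 6 of 24 genes were tested, 5 higher and 1 lower in HFHSD, with a median of 0.39 (0.24 to 0.48 over the scalings), and none passed in limma, while 2 had an unadjusted p below 0.05. None of the tested members was a syntrophin. DMD, which encodes dystrophin, was 2.64 to 3.08 in HFHSD with a median of 2.69, against 2.48, 2.47 and 1.90 in CD 1, CD 2 and CD 3. Its groups did not overlap, the difference was 0.50 (SE 0.20, limma adjusted p = 0.247), and 2 of its 4 probes were higher. CAV3, the caveolin of muscle membranes, differed by -0.68 (limma adjusted p = 0.275) and the sarcoglycan SGCE by 0.39 (limma adjusted p = 0.545).

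Of the Wnt ligands, receptors and modulators, 10 of 48 genes were tested, 7 higher and 3 lower, with a median of 0.24 (0.091 to 0.55 over the scalings). None passed in limma and 0 had an unadjusted p below 0.05. No frizzled receptor was tested: FZD3 was well above background on 0 arrays. The secreted antagonists SFRP5 and DKK3 differed by 0.87 (limma adjusted p = 0.341) and 1.03 (limma adjusted p = 0.401), and SFRP5 was -0.19 after normexp with percentile scaling. The kinase GSK3B differed by -0.41 (limma adjusted p = 0.485), and CTNNB1, the beta-catenin that carries the signal to the nucleus, by 0.022.

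Of 26 glucocorticoid-responsive genes, 15 were tested, 4 higher and 11 lower, with a median of -0.17 (-0.32 to 0.0043 over the scalings). None passed in limma, 5 had an unadjusted p below 0.05, and the groups did not overlap for 4. These were HSD11B1, given above, TXNIP, an inhibitor of thioredoxin (0.64, limma adjusted p = 0.146), the transcription factor CEBPB (-1.03, limma adjusted p = 0.153) and the transcription factor KLF15 (-1.15, limma adjusted p = 0.157). KLF15 was 2.90 to 4.45 in HFHSD with a median of 3.81, against 4.73 to 5.12 in CD. NR3C1, the glucocorticoid receptor, differed by -0.23 (limma adjusted p = 0.65) at its brightest probe, while 2 of its 3 probes were higher. Members of this list thus lay on both sides of 0, with HSD11B1 and TXNIP on the side of MYOC and CEBPB and KLF15 on the other.

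Of the endoplasmic reticulum folding and stress list, 10 of 25 genes were tested, 2 higher and 8 lower, with a median of -0.37 (-0.52 to -0.026 over the scalings). None passed in limma and 2 had an unadjusted p below 0.05. The groups did not overlap for DNAJC3, a co-chaperone (-0.555, limma adjusted p = 0.17), and ATF4, a transcription factor of the stress response (-0.39, limma adjusted p = 0.371). DDIT3, a transcription factor of endoplasmic reticulum stress, differed by -0.83 (limma adjusted p = 0.236), and HSP90B1, a chaperone of the same compartment, by -0.43 (limma adjusted p = 0.384).

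Of the extracellular matrix list, 17 of 36 genes were tested, 8 higher and 9 lower, with a median of -0.017 (-0.16 to 0.10 over the scalings), and none passed in limma, with 1 at an unadjusted p below 0.05. TIMP1, an inhibitor of metalloproteinases, was 3.10 to 3.83 in HFHSD with a median of 3.35, against 3.88 to 4.22 in CD, a difference of -0.56 (limma adjusted p = 0.239). POSTN, the matricellular protein periostin, differed by 1.46 with an SD of 1.31 in HFHSD (limma adjusted p = 0.335), and the metalloproteinase MMP14 by 0.32 (limma adjusted p = 0.681). SPARCL1, also called hevin, which myocilin was reported to bind, differed by -0.062.

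Of the muscle growth list, 19 of 33 genes were tested, 9 higher and 10 lower, with a median of -0.079 (-0.23 to 0.0073 over the scalings). None passed in limma, 4 had an unadjusted p below 0.05, and the groups did not overlap for 5. MSTN, the growth inhibitor myostatin, differed by 1.35 (SE 0.32, limma adjusted p = 0.0759) and cleared background on 6 of 6 HFHSD and 2 of 3 CD arrays. The receptor IGF1R differed by -0.51 (limma adjusted p = 0.223) and the signal transducer SMAD2 by 0.60 (limma adjusted p = 0.188), and SMAD2 was -0.12 after normexp with percentile scaling.

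Of the ErbB receptors and ligands, 3 of 14 genes were tested and 1 passed. This was EGF, the epidermal growth factor, which is also among the genes most like MYOC. It was 2.63 to 3.42 in HFHSD with a median of 3.07, against 2.11, 1.49 and 1.70 in CD 1, CD 2 and CD 3. EGF rose by 1.30 (SE 0.22, limma adjusted p = 0.0303, 0.0115 to 0.182 over the alternatives), and all 3 of its probes were higher, of which 2 passed. It passed in 11 of 21 alternatives and missed the threshold when slide entered the model as a fixed term (adjusted p = 0.0875). Its receptor EGFR differed by -0.066 (limma adjusted p = 0.904), and was 0.30 after normexp with percentile scaling. The ligand HBEGF differed by 0.098 (limma adjusted p = 0.934).

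**Figure D5:**
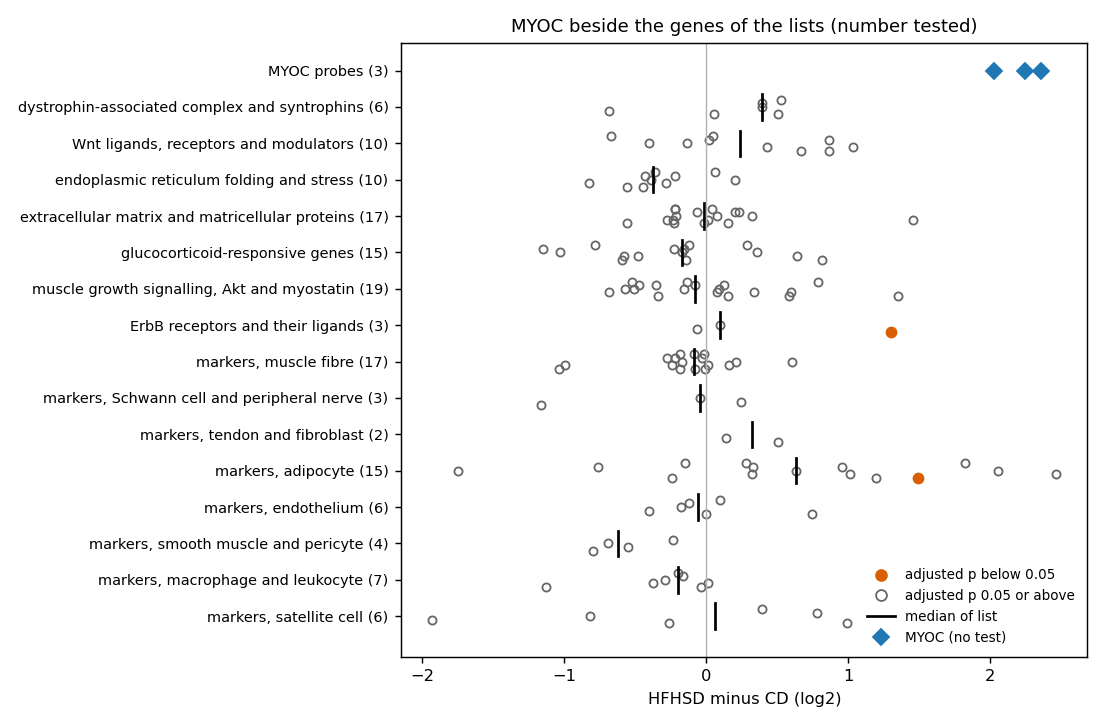
Difference between HFHSD and CD (log2) of each tested gene, by list, with list medians as black bars, genes at an adjusted p below 0.05 filled, and the 3 MYOC probes as diamonds at the top. The MYOC probes lie between 2.03 and 2.36, and EGF and CIDEA are the filled genes.

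Markers of other cell types were read beside MYOC. Of the adipocyte markers, 15 of 19 were tested, 11 higher and 4 lower, with a median of 0.63 (0.30 to 0.89 over the scalings, 0.38 without CD 1). An unadjusted p below 0.05 was reached by 6 of the 15, and the groups did not overlap for 4, all higher in HFHSD: CIDEA, CIDEC, PPARG and LIPE. Over all tested genes, in either direction, these shares were 18.4% and 13.1%. CIDEA, a lipid droplet protein of fat cells, was the 1 marker that passed in limma by its brightest probe. It rose by 1.49 (SE 0.28, limma adjusted p = 0.0378, 0.0144 to 0.194 over the alternatives, and 0.0887 when slide was a fixed term). It was -0.27 to 0.92 in HFHSD with a median of 0.27, against -0.92, -1.42 and -1.22 in CD 1, CD 2 and CD 3. TUSC5 differed by 0.33 at its brightest probe (limma adjusted p = 0.808), while both of its 2 probes were higher and 1 passed.

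CIDEC, another lipid droplet protein, was -3.13 to -0.35 in HFHSD, against -3.68 to -3.30 in CD, a difference of 2.06 (limma adjusted p = 0.115). PPARG, the transcription factor of fat cell formation, differed by 0.96 (limma adjusted p = 0.119) and the lipase LIPE by 1.20 (limma adjusted p = 0.29). PLIN1, which coats fat cell lipid droplets, cleared background on 5 of 6 HFHSD and 0 of 3 CD arrays. PLIN1 thus entered the tested genes through HFHSD arrays alone. It is counted among the 11 higher markers and the 6 at an unadjusted p below 0.05. ADIPOQ ranged from -0.94 to 2.58 in HFHSD, against -1.25 to -0.72 in CD. HFHSD 4, the lowest HFHSD animal for ADIPOQ and within the CD range at -0.94, had a MYOC mean of 2.71, close to the HFHSD mean. HFHSD 4 was also the lowest HFHSD animal for CIDEA (-0.27), CIDEC (-3.13) and PPARG (-0.32), though above all CD animals for each. This describes a single animal, and no relation of these markers to MYOC was tested.

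The mean log2 level of the 15 adipocyte markers, which weights each alike, was -0.020 to 0.81 in HFHSD with a median of 0.65, against -0.37 to 0.13 in CD. Their linear sum, 469 to 794 in HFHSD and 523 to 854 in CD, mainly followed GPD1, an enzyme also found outside fat, which made up 52.8% to 85.7% of it. The 4 lower markers were PCK1 (-1.75), RETN (-0.77), GPD1 (-0.24) and ADRB3 (-0.15). PCK1 ran from -0.71 to 5.02 in CD with a median of 0.069, against -1.26 to 0.36 in HFHSD, so its difference rests on 1 CD animal. RETN cleared background on 3 of 6 HFHSD and 2 of 3 CD arrays, and ADRB3 on 2 of 6 HFHSD and 1 of 3 CD arrays. Adipocyte markers were thus higher in HFHSD for 11 of 15, PLIN1 among them, against 1109 of all 2613 tested genes. The groups overlapped in the mean level of these markers. Their part in the MYOC difference was not tested.

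Muscle fibre markers had a median of -0.087, which ran from -0.23 to 0.32 over the scalings, and a linear sum of 12347 to 16606 in HFHSD, against 14948 to 19567 in CD. None passed in limma, and 2 had an unadjusted p below 0.05. Both had groups that did not overlap: the fast troponin TNNT3 (-1.04, limma adjusted p = 0.108) and the fast myosin heavy chain MYH2 (-0.996, limma adjusted p = 0.158). MYH4, another fast myosin heavy chain, differed by 0.61 (limma adjusted p = 0.37).

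Of the tendon and fibroblast markers, 2 of 14 were tested, THY1 and PI16, both dim, with a linear sum of 0.26 to 0.55 in HFHSD and 0.28 to 0.34 in CD, and the tendon marker TNMD was well above background on 1 array. Of the Schwann cell markers, 3 of 11 were tested, and MBP, the myelin basic protein, made up at least 96.2% of their linear sum of 6.49 to 43.7 in HFHSD and 31.6 to 38.6 in CD. MBP differed by -1.16 (limma adjusted p = 0.286), and SOX10 cleared background on 3 of 6 HFHSD and 2 of 3 CD arrays.

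The 4 tested smooth muscle markers were all lower, with a median of -0.62 (-0.77 to -0.24 over the scalings), and none passed in limma (2 at an unadjusted p below 0.05). SMTN, or smoothelin, differed by -0.80 (limma adjusted p = 0.177), the smooth muscle actin ACTA2 by -0.55 (limma adjusted p = 0.285) and the calponin CNN1 by -0.69 (limma adjusted p = 0.641). Their mean log2 level was 3.997 to 4.93 in HFHSD, against 4.75 to 5.46 in CD, and ACTA2 made up at least 89.6% of their linear sum of 535 to 811 in HFHSD and 811 to 1237 in CD.

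Of the satellite cell markers, 6 of 13 were tested and none passed in limma, with 4 at an unadjusted p below 0.05. VCAM1 differed by 0.99 (limma adjusted p = 0.0577), MYOD1 by -1.93 (limma adjusted p = 0.0863) and SDC4 by -0.82 (limma adjusted p = 0.18). MYOD1 was dim and cleared background on 3 of 6 HFHSD and 2 of 3 CD arrays. The mean log2 level of the 6 markers was -1.20 to -0.66 in HFHSD, against -1.05 to -0.57 in CD. Their linear sum was 8.03 to 9.87 in HFHSD and 7.30 to 8.82 in CD.

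The 6 tested endothelial markers had a median of -0.061, which was 0.21 after normexp with percentile scaling and 0.27 when slide was a fixed term. CLDN5, a tight junction protein, differed by 0.75 (limma adjusted p = 0.298), ENG by -0.40 (limma adjusted p = 0.467) and PECAM1 by -0.18 (limma adjusted p = 0.748), and their list had a linear sum of 23.3 to 39.4 in HFHSD, against 30.8 to 32.6 in CD. Macrophage and leukocyte markers, 7 of 16 tested, had a median of -0.20 (-0.35 to 0.014 over the scalings) and a linear sum of 9.67 to 27.1 in HFHSD, against 16.7 to 28.1 in CD. CD163 differed by -1.13 (limma adjusted p = 0.346), and the complement genes C1QC and C1QB by -0.37 (limma adjusted p = 0.733) and -0.29 (limma adjusted p = 0.789).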

How the data were processed

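Longissimus dorsi RNA of 9 minipigs (6 HFHSD, 3 CD) was labelled with Cy3, 1 array per animal, per the labels' protocols. Scanner output was deposited as linear intensity per spot, extracted by the authors with Agilent Feature Extraction 10.7.3.1, per the file headers. Its processed signal has the background removed within each array and carries no scaling across arrays. The series-wide value table held identical intensity values (0 spots differed on each array).

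Control spots and outlier spots were left out (22 of 43603 probes dropped), spots of a probe were averaged in log2, and the 75th percentile of the array was subtracted. Accessions named 6891 probes of 3196 genes. Probes well above background on at least 3 arrays were fitted with limma 3.58.1 in R 4.3.3, over all 9 arrays without covariates, two-sided, with Benjamini-Hochberg adjustment over all tested probes; a gene is read by its brightest probe. The fit was tested on simulated data. The mean signal is not among the columns of the files, so normexp (offset 50) used the median signal.

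Members and lists were chosen with earlier results of these data known. Named genes are MYOC, list members that passed with up to 3 others by smallest p, ACTA1, CKM, MB and DES, and 5 genes per likeness measure. MB had no tested probe, and 1 result of the rule is not reported here. Other list members are named for their role after their values were seen. The number of arrays limits the precision. Replicates are numbered in accession order.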

Additional observations from a re-analysis of the deposited data

Results flagged for a closer look

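Among the 64 profiles checked in the 6 HFHSD animals (MYOC by each probe and by their mean, and the named genes), 4 had 1 animal far from the others, where chance alone marks about 1 in 20 such groups. For the MYOC probe A_72_P232842, HFHSD 3 stood at 4.99, above the next animal at 4.47. For CAV3, HFHSD 1 stood at 2.09, above the next at 1.35. For HBEGF, a ligand of ErbB receptors, HFHSD 5 stood at 0.44, below the next at 1.47, and for VCAM1 HFHSD 5 stood at 1.44, below the next at 1.99. Without HFHSD 3 the difference of A_72_P232842 was 2.25. The 3 CD animals are too few for this check.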

How the results depend on the processing

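All alternatives kept the MYOC difference positive. It moved by more than the within-group spread to 1.87 for the mean of the probes after normexp with quantile normalisation, and for A_72_P441639 to 1.85 after normexp with percentile scaling and 1.75 after normexp with quantile normalisation. Leaving out 1 animal gave 2.13 to 2.36 for the mean of the probes, 2.25 to 2.51 for A_72_P232842, 2.11 to 2.41 for A_72_P441639 and 1.88 to 2.16 for A_72_P583116.

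The counts of calls depended on the processing, and the cause was not tested. Against 344 probes (194 higher, 150 lower) and 2 list genes, quantile normalisation gave 387 probes (237 higher, 150 lower) and 4 list genes, array median scaling 127 (47 higher, 80 lower) and 0, the percentile of probes detected on all arrays 488 (323 higher, 165 lower) and 4, normexp with percentile scaling 115 (82 higher, 33 lower) and 1, and normexp with quantile normalisation 859 (409 higher, 450 lower) and 5. No filter gave 66 and 0, the filter on all arrays 736 (281 higher, 455 lower) and 4, slide as a fixed block 84 and 0, slide as a random block 677 and 3, array weights 1205 and 5, a trended robust prior 612 and 4, and an adjusted p below 0.10 gave 1211 and 6. Leaving out 1 animal gave 25 to 324 probes and 0 to 4 list genes: the probe count was 99 when HFHSD 2 was left out, 75 for HFHSD 3, 161 for HFHSD 5, 93 for HFHSD 6, 32 for CD 1, 87 for CD 2 and 25 for CD 3. Of these 9 fits EGF passed in those without HFHSD 1 and HFHSD 4, and CIDEA in that without HFHSD 4. EGF and CIDEA thus rest on the processing and on single animals.

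Some small differences changed sign. Quantile normalisation gave EGFR 0.0202 and PSMC5 0.0392. Array median scaling gave HBEGF -0.0496, PI16 -0.0088 and ITGB3 -0.077. The percentile of detected probes gave EGFR 0.0202 and PSMC5 0.011. Normexp with percentile scaling gave SFRP5 -0.192, SMAD2 -0.116, EGFR 0.296, SOX10 -0.176, THY1 -0.332, PI16 -0.229, PECAM1 0.223, C1QB 0.0143, ACTA1 0.362, CKM 0.29, DES 0.277 and PSMC5 0.393. Normexp with quantile normalisation gave SFRP5 -0.0467, EGFR 0.0384, THY1 -0.0976, PI16 -0.0138, ACTA1 0.0407 and PSMC5 0.0841. Slide as a fixed block gave SOX10 -0.427 and ITGB3 -0.00802, and as a random block SOX10 -0.0322. Leaving out 1 animal gave ranges across 0 for CKM (-0.277 to 0.0298), PSMC5 (-0.126 to 0.00397), HBEGF (-0.127 to 0.462), PI16 (-0.0385 to 0.271) and SOX10 (-0.0932 to 0.585).

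No paired analysis was possible because the labels give the animals no shared numbers. With 3 CD animals, of which CD 1 had the fewest probes above background (36.7%), the CD spread is poorly known, and dim genes near background have uncertain differences.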
